A study of Mus musculus with 6 samples.

Results

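The molecular clock of interscapular brown fat was examined through 10 of its genes: the transcription factors Arntl, Clock and Npas2, their inhibitors Per2, Per3 and Cry1, the nuclear receptors Nr1d1 and Nr1d2, and the output factors Dbp and Tef. They are the rows of the deposited table that carry these symbols, and all 10 were found among its 19241 genes. The set was drawn up with the differences between the genotypes in these libraries in view. Their KO against WT values are therefore given as a description with no test, and tests are reserved for clock genes outside the set. The lists of those other genes were also chosen with earlier results of these data known.

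Each library holds RNA from the whole interscapular brown adipose depot of newborn mice, sequenced in bulk. The 3 libraries called WT come from Fstl1-floxed mice, and the 3 called KO from Myf5-Fstl1 KO mice, in which the gene for the secreted glycoprotein follistatin-like 1 is deleted in the lineage that expresses Myf5, a lineage that forms skeletal muscle and much of this brown fat. The deletion thus reaches the cells of that lineage and not every cell of the depot. The labels give no age beyond newborn, no sex and no time of day of collection, and do not say whether each library is 1 animal, so the p-values below measure the spread between these libraries, which may be technical in part.

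In the mammalian clock ARNTL (BMAL1) pairs with CLOCK or with its paralogue NPAS2 and activates genes through a DNA element called the E-box. Among these genes are Per and Cry, whose proteins return to block the activator, and Nr1d1 and Nr1d2, which encode REV-ERB alpha and beta, heme-binding repressors that act on Arntl, Npas2, Clock and Cry1 through another element, the RORE. DBP and TEF carry the rhythm to output genes through D-boxes, and in brown fat REV-ERB alpha is known as a repressor of Ucp1 and of heat production.

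The starts of these genes differ in which of these elements they hold. Windows from 250 bases before to 50 bases after the start site were present for 9 of the 10 genes in RefSeq (GRCm38.p6, which is the mm10 build named in the submitters' processing notes), as 13 windows in all; Per2 has none. They were searched on both strands for CACGTG (E-box), CACGTT (a variant E-box), TTATGTAA and TTACGTAA (D-boxes) and TAGGTCA (the core of a RORE), none of which overlap one another in these windows. A match is a description of letters, not of a bound site. Stretches are shown for the genes that have a match and for Nr1d2, the gene with the largest KO to WT ratio of the set, which has none; capitals mark the matches, and positions count back from the start site.
Nr1d1 (chr11:98775378-98775497, minus strand, −120 to −1): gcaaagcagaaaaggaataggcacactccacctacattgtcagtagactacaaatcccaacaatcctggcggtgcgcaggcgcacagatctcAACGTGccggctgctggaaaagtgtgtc
Nr1d2 (chr14:18239137-18239256, minus strand, −150 to −31): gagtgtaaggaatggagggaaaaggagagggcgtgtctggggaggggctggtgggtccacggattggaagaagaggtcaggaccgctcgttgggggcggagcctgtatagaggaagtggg
Cry1 (chr10:85185075-85185174, minus strand, −120 to −21): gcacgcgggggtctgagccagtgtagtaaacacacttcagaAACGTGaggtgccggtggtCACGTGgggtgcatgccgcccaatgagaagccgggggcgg
Per3 (chr4:151044796-151044915, minus strand, −250 to −131): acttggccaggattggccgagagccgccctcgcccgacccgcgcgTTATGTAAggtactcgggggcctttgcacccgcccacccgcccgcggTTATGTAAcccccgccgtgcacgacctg
Tef (chr15:81802533-81802562, plus strand, −140 to −111): ggtgctgtggctcCACGTGctgcagctggc
Arntl (chr7:113207531-113207560, plus strand, 21 to 50 after the second of its start sites): aggcagaaagTAGGTCAgggacggaggtgc

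CACGTG was found at 2 of the genes, at −60 in Cry1 and at −127 and −138 before the 2 start sites of Tef, against 8.09% of all 27025 genes with a window. The variant CACGTT stood at Cry1, at −79, and at Nr1d1, at −28, both on the reverse strand, against 5.44% of genes. Per3 alone of the 9 held a D-box, with TTATGTAA at −205 and −158, a sequence found at 1.11% of genes. TTACGTAA, present at 0.126% of genes, was at none of the 9. Arntl alone of the 9 had TAGGTCA, at 31 bases after its second start, against 2.97% of genes. The windows of Nr1d2, Clock, Npas2 and Dbp held none of the 5 sequences.

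Fstl1, the targeted gene, was at 79.98 ± 43.4 FPKM (SD, n = 3) in WT against 9.93 ± 2.76 FPKM in KO, which is 12.4% of WT (limma, log2 fold change −2.79, SE 0.33, adjusted p 0.00979). FPKM counts sequenced fragments relative to transcript length and library size, so levels of different genes can be compared. Xist was at 67.5 ± 20.7 FPKM in WT and 0.343 ± 0.499 FPKM in KO, and the Y-linked Eif2s3y at 0.0267 ± 0.0462 and 92.2 ± 7.89 FPKM (SD, n = 3), so sex coincides with genotype in these libraries and the 2 cannot be told apart in any difference below. Of 10 adipocyte markers, Ucp1 and Cidea, which mark brown fat, were at 1695 to 6255 and 1299 to 1988 FPKM over the 6 libraries, Ppargc1a at 14.59 to 35.88 and Prdm16, a regulator of brown fat identity, at 1.68 to 5.25 FPKM. In 4 of the 10 every KO value was below every WT value, beside 11.4% of all genes, and 2 passed in limma, beside 1.01% of all genes called lower: Plin1, a lipid droplet protein (−1.36, adjusted p 0.0267), and Lep (−1.07, adjusted p 0.0423), which was at 2.22 FPKM or less throughout. The other 2 were Prdm16 (limma, −0.87, adjusted p 0.0519) and Ucp1, at 5582 ± 1055 and 2729 ± 960 FPKM (SD, n = 3; limma, −1.08, adjusted p 0.0804). The remaining markers overlapped between the groups, and 0 lay higher in all KO libraries. Their ranges in FPKM, WT then KO, were 14.59 to 22.01 and 20.96 to 35.88 for Ppargc1a. For Adipoq they were 889.1 to 1078.6 and 1072.49 to 1215.69. For Pparg they were 162.83 to 226.16 and 184.68 to 262.01, and for Dio2 25.92 to 56.1 and 26.88 to 50.72. The log2 fold change was 0.13 for Cidea and −0.07 for Fabp4. By the spacing of low values, a library held an estimated 13800000 to 15000000 reads.

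Of the 10 clock genes, Nr1d2 had the largest KO to WT ratio, and Nr1d1 and Nr1d2 were the only ones of the set whose deposited KO and WT values did not overlap. Nr1d2 was 3.49-fold and Nr1d1 2.01-fold higher in the KO mean. Npas2 was 2.5-fold higher on average, a figure that KO replicate 3 set. Arntl, Clock, Per2, Per3 and Tef had KO means of 112% to 124% of the WT mean, and Cry1 and Dbp had lower KO means, at 69.1% and 54.8% of WT. All 10 passed the filter of a mean of 0.5 FPKM; 8 had a positive and 2 a negative log2 fold change, with a median of 0.21 against 0.01 over the 13331 genes tested. The 2 genes without overlap stand beside 24.9% of all genes tested in either direction, and 13.6% higher in KO. Since the genes were chosen on this contrast, this count is not read as a result.

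**Figure D1:**
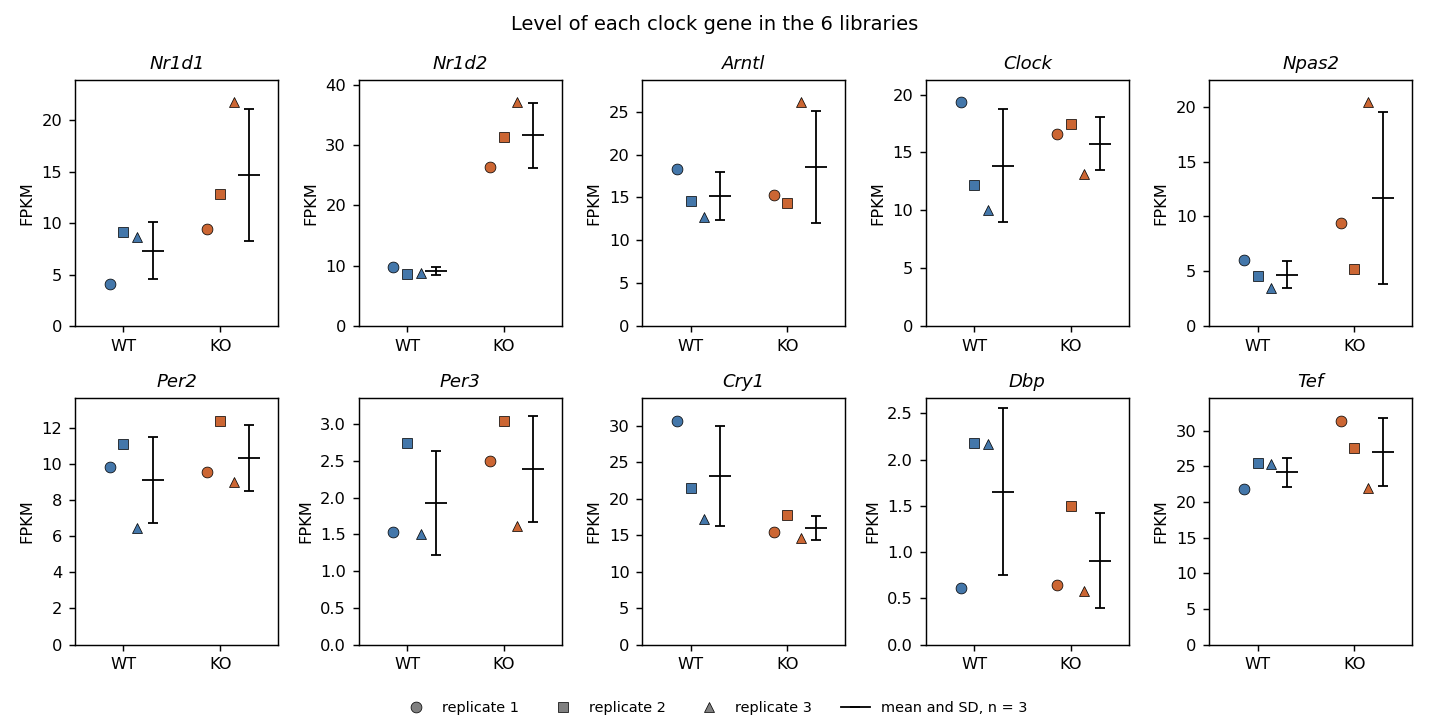
FPKM of the 10 clock genes (vertical axes from 0, 1 panel per gene) in the 3 WT and 3 KO libraries, with the symbol giving the replicate number and the bar the mean and SD. The Nr1d2 values of the groups are far apart, from 8.59 to 9.81 in WT and from 26.39 to 37.12 in KO, and those of Nr1d1 nearly touch, while the other 8 genes overlap.

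Nr1d2 (Entrez gene 353187; chromosome 14, 18204056 to 18239106, minus strand) encodes REV-ERB beta. Here and below, values by library are in the order of replicates 1, 2 and 3. Nr1d2 measured 9.81, 8.59 and 8.77 FPKM in the WT libraries, against 26.39, 31.4 and 37.12 FPKM in KO. The WT libraries lay close together, and the lowest KO library was well above the highest of them. The means were 9.06 ± 0.659 and 31.6 ± 5.37 FPKM (SD, n = 3), and the difference on the log2(FPKM + 1) scale was 1.69 with an SE of 0.16. It ran from 1.57 to 1.81 over the 16 alternative settings.

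Nr1d1 (217166; chromosome 11, 98767932 to 98775377, minus strand) encodes REV-ERB alpha. Its transcript measured 4.11, 9.13 and 8.68 FPKM in the WT libraries, against 9.4, 12.85 and 21.77 FPKM in KO. The highest WT and the lowest KO library differed by less than either group's own spread, so the separation is narrow. The log2 difference was 0.90 with an SE of 0.33, between 0.59 without WT replicate 1 and 1.16 without KO replicate 1, with 0.596 without KO replicate 3. Its exons share 263 of their 3077 bases with Thra, which runs on the opposite strand and encodes a thyroid hormone receptor; the strand handling of the counting is not given in the sources used here, so reads from this stretch cannot be assigned to either gene. Thra itself had a log2 difference of −0.07 (95% interval −0.55 to 0.41).

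In WT the receptor pair stood near the middle of the set, with Nr1d2 at a mean of 9.06 and Nr1d1 at 7.31 FPKM. In KO Nr1d2 had the highest mean of the 10, although its range there overlapped that of Tef, the next in order. The ratio of Nr1d2 to Nr1d1 overlapped between the groups, from 0.941 to 2.39 in WT and from 1.71 to 2.81 in KO.

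Arntl (11865; chromosome 7, 113178471 to 113314126), the partner common to both activator pairs and a target of REV-ERB repression, measured 18.28, 14.58 and 12.68 FPKM in the WT libraries, against 15.28, 14.41 and 26.13 FPKM in KO. KO replicates 1 and 2 lay inside the WT range and replicate 3 above it. The means were 15.2 ± 2.85 and 18.6 ± 6.53 FPKM (SD, n = 3), a log2 difference of 0.24 with an SE of 0.24, which came to −0.02 without KO replicate 3.

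Clock (12753; chromosome 5, 76209868 to 76305603, minus strand), the usual partner of ARNTL, measured 19.35, 12.2 and 10.05 FPKM in the WT libraries, against 16.61, 17.49 and 13.15 FPKM in KO. All KO values were inside the WT range, and the log2 difference was 0.21 with an SE of 0.23. It was 0.46 without WT replicate 1 and 0.022 without WT replicate 3. Its paralogue Npas2 (18143; chromosome 1, 39193702 to 39363240) measured 5.99, 4.54 and 3.5 FPKM in the WT libraries, against 9.39, 5.25 and 20.44 FPKM in KO. KO replicate 2 lay within the WT range and KO replicate 3 at 3.89 times the level of replicate 2, the widest spread of any of the 10 genes in either group. The log2 difference of Npas2 was 0.999 with an SE of 0.39, and 0.53 without KO replicate 3.

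Among the inhibitors, Cry1 (12952; chromosome 10, 85131700 to 85185054, minus strand), a strong repressor of the CLOCK and ARNTL pair, measured 30.7, 21.48 and 17.23 FPKM in the WT libraries, against 15.48, 17.82 and 14.64 FPKM in KO. KO replicate 2 was the one KO value that reached into the WT range, and with quantile normalization or median-of-ratios scaling the groups were apart. The means were 23.1 ± 6.89 and 15.98 ± 1.65 FPKM (SD, n = 3), with a log2 difference of −0.47 and an SE of 0.21. Without WT replicate 3 it was −0.66, and without WT replicate 1 it was −0.26.

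Per2 (18627; chromosome 1, 91415977 to 91459351, minus strand) measured 9.83, 11.12 and 6.45 FPKM in the WT libraries, against 9.57, 12.43 and 9.05 FPKM in KO. Per3 (18628; chromosome 4, 150997018 to 151044707, minus strand) was much lower and measured 1.53, 2.75 and 1.5 FPKM in the WT libraries, against 2.5, 3.05 and 1.62 FPKM in KO. In both period genes the groups overlapped over most of their range, and the highest library of each group was replicate 2. The log2 differences were 0.18 with an SE of 0.21 for Per2 and 0.22 with an SE of 0.22 for Per3, each about as large as its error. Leaving out 1 library gave −0.025 to 0.33 for Per2 and 0.076 to 0.41 for Per3.

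Of the output factors, both of the PAR bZIP family, Dbp (13170; chromosome 7, 45705100 to 45710203) was the lowest of the 10 genes. It measured 0.61, 2.18 and 2.17 FPKM in the WT libraries, against 0.64, 1.5 and 0.58 FPKM in KO. WT replicate 1 was as low as the low KO libraries, and the log2 difference was −0.44 with an SE of 0.29. Leaving out WT replicate 1 made it −0.77, leaving out either of the other WT libraries −0.28, and a pseudocount of 0.01 gave −0.78. At the estimated depth these levels rest on about 15.5 to 57.3 reads, and 539 of the 2993 exon bases of Dbp are shared with Sphk2 on the opposite strand. Tef (21685; chromosome 15, 81802673 to 81826863) had the highest WT mean and measured 21.84, 25.43 and 25.28 FPKM in the WT libraries, against 31.42, 27.52 and 21.97 FPKM in KO. Its log2 difference was 0.14 with an SE of 0.16, and leaving out 1 library gave 0.027 (KO replicate 1) to 0.28 (KO replicate 3).

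By mean level in WT the order was Tef, Cry1, Arntl, Clock, Per2, Nr1d2, Nr1d1, Npas2, Per3 and Dbp. Each neighbouring pair overlapped in range except Npas2 and Per3. In KO the order was Nr1d2, Tef, Arntl, Cry1, Clock, Nr1d1, Npas2, Per2, Per3 and Dbp, and the ranges were apart between Per2 and Per3 and between Per3 and Dbp only.

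The KO libraries differed among themselves in the values of these genes. Every gene must have a highest and a lowest library in each group. How often each library takes these places over all genes was not computed, so the counts below are not read as a result. KO replicate 3 had the highest KO value of Nr1d1, Nr1d2, Arntl and Npas2, and the lowest KO value of the other 6 genes, Clock, Per2, Per3, Cry1, Dbp and Tef. KO replicate 2 had the highest KO value of Clock, Per2, Per3, Cry1 and Dbp and the lowest of Arntl and Npas2. In WT, replicate 1 was highest for 5 genes (Nr1d2, Arntl, Clock, Npas2 and Cry1) and lowest for Nr1d1, Dbp and Tef, and replicate 3 was lowest for 6. Summed marker levels of KO replicate 3 were within the range of the other libraries for adipocytes (20780 FPKM, most of it Fabp4), muscle (1947 FPKM) and erythroid cells (3956 FPKM). For macrophages KO replicate 3 was the highest of the 6 (168 FPKM, against 163 in KO replicate 2). By a very small margin it was the lowest for endothelium (414 FPKM, against 415 in WT replicate 1) and Schwann cells (21.63 FPKM, against 21.79 in KO replicate 1). The part of these cells in the differences between libraries was not tested.

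**Figure D2:**
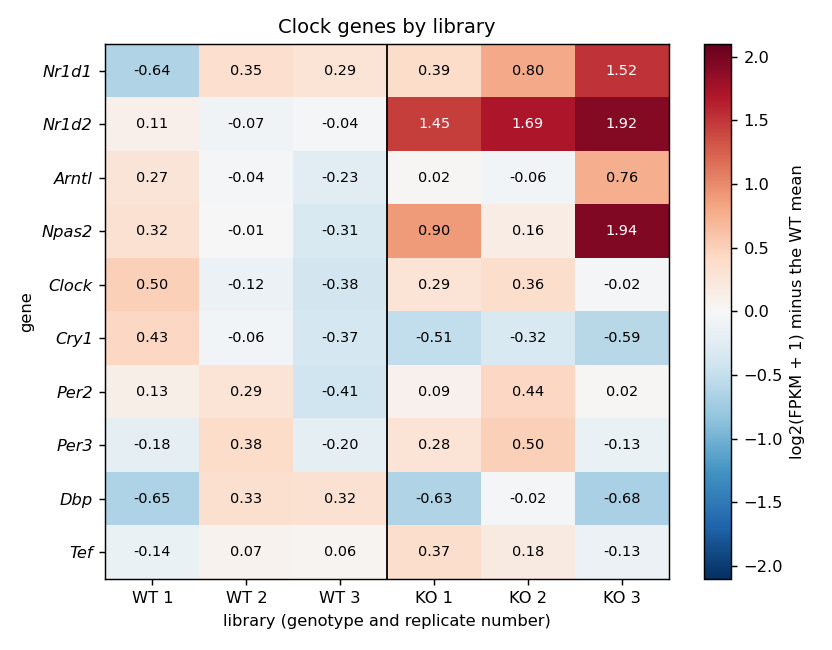
Difference of log2(FPKM + 1) from the WT mean (colour and printed value) for the 10 clock genes (rows) in each of the 6 libraries (columns). KO replicate 3 reaches 1.52 for Nr1d1, 1.92 for Nr1d2 and 1.94 for Npas2 and is below the WT mean for Cry1, at −0.59, and Dbp, at −0.68.

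Ratios within a library do not depend on its scaling. Of the ratios to Arntl that were taken, 2 separated the groups. The share of all gene pairs that do so was not computed, while 24.9% of single genes tested did not overlap. Nr1d2 itself did not overlap between the groups, so the count of 2 is not read as a result. Nr1d2 stood at 0.537, 0.589 and 0.692 times Arntl in WT replicates 1 to 3 and at 1.73, 2.18 and 1.42 times Arntl in KO replicates 1 to 3. Cry1 stood at 1.68, 1.47 and 1.36 times Arntl in WT and at 1.01, 1.24 and 0.56 times Arntl in KO. The WT libraries thus held more Cry1 than Nr1d2 transcript per length, and in KO this order was turned in all 3 libraries. The ratios of Nr1d1 to Arntl (0.225 to 0.685 in WT, 0.615 to 0.892 in KO), of Per2 to Arntl (0.509 to 0.763 and 0.346 to 0.863) and of Dbp to Arntl (0.0334 to 0.171 and 0.0222 to 0.104) overlapped. Npas2 stood at 0.31 to 0.372 times Clock in WT and at 0.565, 0.30 and 1.55 times Clock in KO, so that it exceeded Clock in KO replicate 3 alone.

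**Figure D3:**
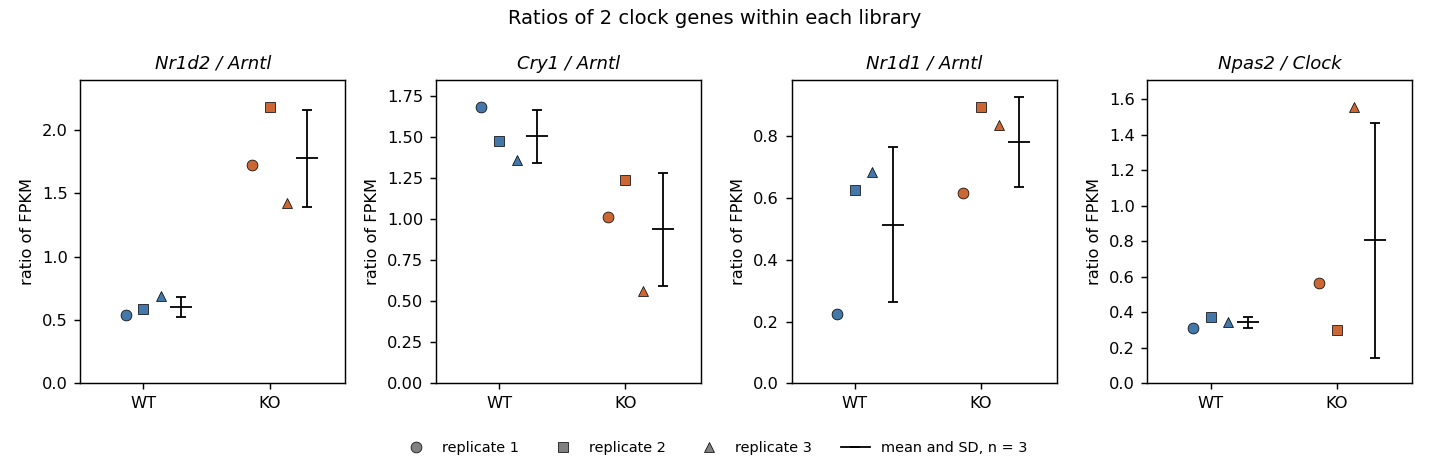
Ratio of the FPKM values of 2 genes within a library (vertical axes from 0) for the 3 WT and 3 KO libraries, with mean and SD. The KO values of Nr1d2 over Arntl lie above all WT values and those of Cry1 over Arntl below them, while Nr1d1 over Arntl and Npas2 over Clock overlap.

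Clock genes outside the set were taken from 4 lists with 38 genes in the table, of which 36 passed the filter and were tested. In limma, with p-values adjusted over all 13331 genes, 3 of the 36 passed 0.05, beside 2.21% of all genes: Per1 and Tsc22d3 rose in KO and Noct fell, where 1.21% of all genes rose and 1.01% fell. The groups did not overlap in 10 of the 36 (6 higher and 4 lower in KO), beside 24.9% of all genes (13.6% higher and 11.4% lower), and the median log2 fold change was 0.055. At an unadjusted p under 0.05 there were 11, beside 19.2% of all genes. Because the 4 lists were chosen with earlier results of these data known, these counts are not read as a result about clock genes.

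Per1 (18626; chromosome 11, 69095108 to 69109965), the period gene that also responds acutely to glucocorticoids and cAMP, measured 19.43, 25.04 and 21.96 FPKM in the WT libraries, against 51.17, 42.41 and 58.61 FPKM in KO. Each KO library was above each WT library by a wide margin. The means were 22.1 ± 2.81 and 50.7 ± 8.11 FPKM (SD, n = 3), a 2.29-fold difference (limma, adjusted p 0.0183), with a log2 fold change of 1.16 and an SE of 0.17. The ratio of Per1 to Per2 was 1.98 to 3.40 in WT and 3.41 to 6.48 in KO, so the groups were just apart. Per1 holds a CACGTG before one of its start sites, which is printed here in capitals at −166 because Per1 is the clock loop gene that passed the test. The sequence is not particular to Per1 and stands at 8.09% of all genes with a window. Among the loop partners and paralogues it was also found at Ciart, at −116, −58 and −44, and at Bhlhe41, at −153. Neither of these passed (log2 fold changes 0.04 and −0.54). A link between the sequence and the Per1 difference was not tested.
Per1 (chr11:69098749-69098848, plus strand, −200 to −101): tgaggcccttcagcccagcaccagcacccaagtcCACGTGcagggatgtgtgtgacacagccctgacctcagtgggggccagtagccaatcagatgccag

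The other 8 tested partners and paralogues of the clock loop did not pass. Arntl2, a paralogue of Arntl, measured 1.27, 1.44 and 1.23 FPKM in the WT libraries, against 2.23, 2.14 and 2.01 FPKM in KO, without overlap (limma, log2 fold change 0.44, adjusted p 0.135). Rora, which encodes the activator that competes with REV-ERB at ROREs, was at 2.28 ± 0.376 and 3.51 ± 0.719 FPKM (SD, n = 3; limma, 0.46, adjusted p 0.195), also without overlap. Bhlhe41, encoding the E-box repressor DEC2, measured 1.34, 1.81 and 1.64 FPKM in the WT libraries, against 1.12, 1.14 and 0.25 FPKM in KO. Its groups did not overlap, and it did not pass (limma, −0.54, adjusted p 0.236). These levels rest on an estimated 22.8 to 161.9 reads, and 1280 of the 6720 exon bases of Bhlhe41 are shared with Gm43909 on the opposite strand. The Bhlhe41 value was −0.28 without KO replicate 3, and −1.06 and −1.19 with pseudocounts of 0.1 and 0.01. Its paralogue Bhlhe40 had a log2 fold change of 0.00 with a 95% interval of −0.52 to 0.51. Nfil3, whose product competes with DBP and TEF at D-boxes, had a log2 fold change of 0.40 (−0.09 to 0.89), Hlf, the third PAR bZIP factor, −0.28 (−0.94 to 0.37), Cry2 0.16 (−0.23 to 0.55) and Ciart, a repressor of the activator pair, 0.04 (−0.58 to 0.66). Rorb was at 0.24 FPKM or less in each of the 6 libraries and was not tested.

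**Figure D4:**
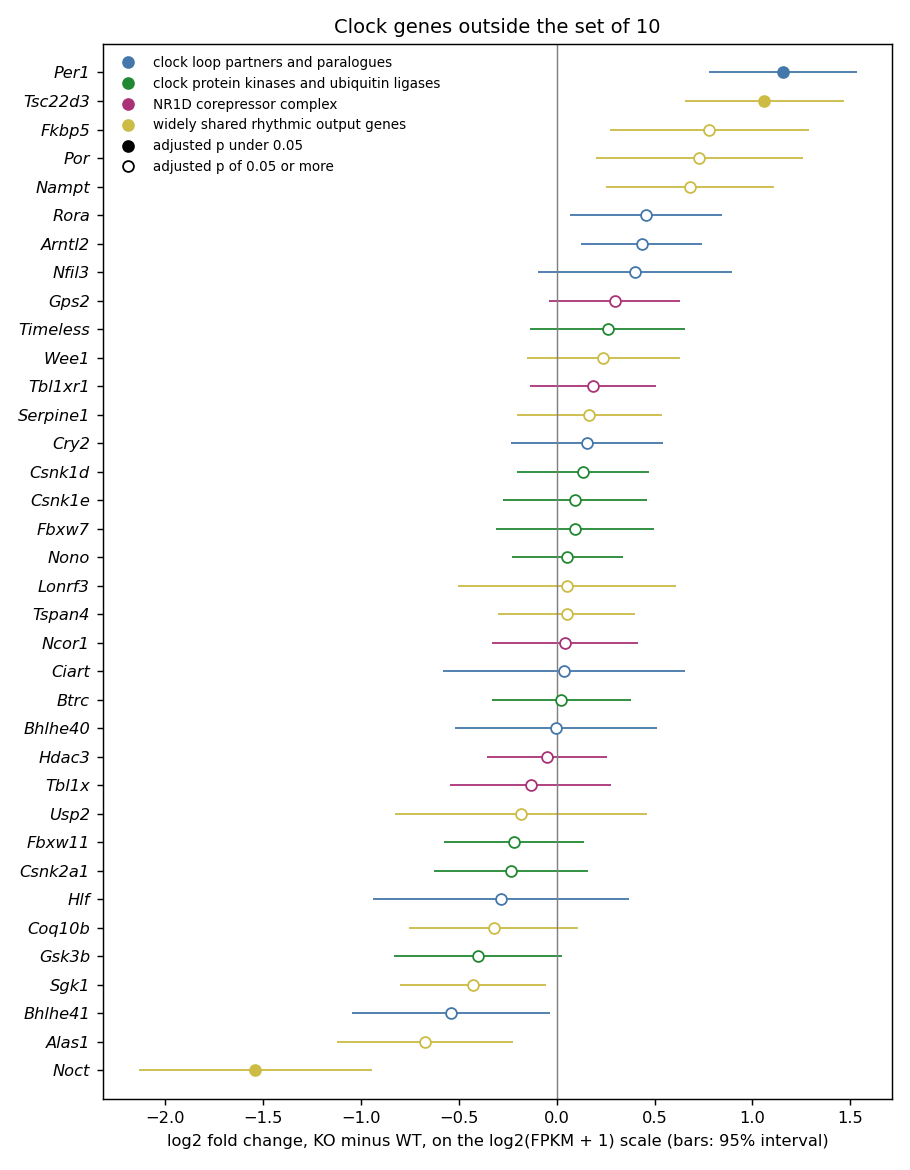
Log2 fold change (KO minus WT, horizontal axis, bars giving the 95% interval) of the 36 tested clock genes outside the set, coloured by list, with filled points for an adjusted p under 0.05. Per1 at 1.16 and Tsc22d3 at 1.06 lie at the upper end and Noct at −1.54 at the lower end.

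Among widely shared rhythmic output genes 2 of 13 passed. Tsc22d3 (14605; X chromosome), which encodes the glucocorticoid-induced leucine zipper, measured 31.28, 31.75 and 27.53 FPKM in the WT libraries, against 53.45, 59.48 and 82.18 FPKM in KO, a 2.15-fold difference (limma, log2 fold change 1.06, SE 0.18, adjusted p 0.0304). It is X-linked, in libraries whose sexes differ with the genotype. Noct (12457), which encodes nocturnin, measured 83.38, 38.65 and 57.92 FPKM in the WT libraries, against 23.34, 16.46 and 17.86 FPKM in KO. All KO libraries lay below the lowest WT library, and KO held 32.0% of the WT mean (limma, −1.54, SE 0.26, adjusted p 0.0312).

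The next by p-value in that list, Nampt, which encodes an enzyme of NAD salvage, did not pass (limma, 0.68, adjusted p 0.10). It was at 146 ± 19.9 FPKM in WT and 237 ± 52.2 FPKM in KO (SD, n = 3). Chosen after their values were seen, and outside the rule for named genes, are Fkbp5, Sgk1 and Alas1. Fkbp5, a chaperone partner of the glucocorticoid receptor, lay higher in each KO library (0.78, limma, adjusted p 0.109), and Sgk1, also known as a glucocorticoid target, lay lower in each (−0.43, limma, adjusted p 0.205). Alas1, which encodes the first enzyme of the synthesis of heme, the ligand of REV-ERB, was at 107 ± 19.5 FPKM in WT and 66.98 ± 14.2 FPKM in KO (SD, n = 3; limma, −0.67, adjusted p 0.115), without overlap.

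Of the 9 tested kinases, ubiquitin ligases and other regulators of PER and CRY proteins, 0 passed in limma and 0 had an unadjusted p under 0.05, and the groups overlapped in all 9. The smallest p-values belonged to Gsk3b, a kinase of several clock proteins (−0.40, limma, adjusted p 0.29), Timeless (0.26, limma, adjusted p 0.452) and Fbxw11, a ubiquitin ligase subunit that acts on PER proteins (−0.22, limma, adjusted p 0.489). Of the 5 genes of the corepressor complex through which REV-ERB acts, 0 passed in limma and 0 had an unadjusted p under 0.05. The smallest p-values there belonged to Gps2 (0.30, 95% interval −0.04 to 0.63), Tbl1xr1 (0.19, −0.14 to 0.51) and Tbl1x (−0.13, −0.54 to 0.28).

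**Figure D5:**
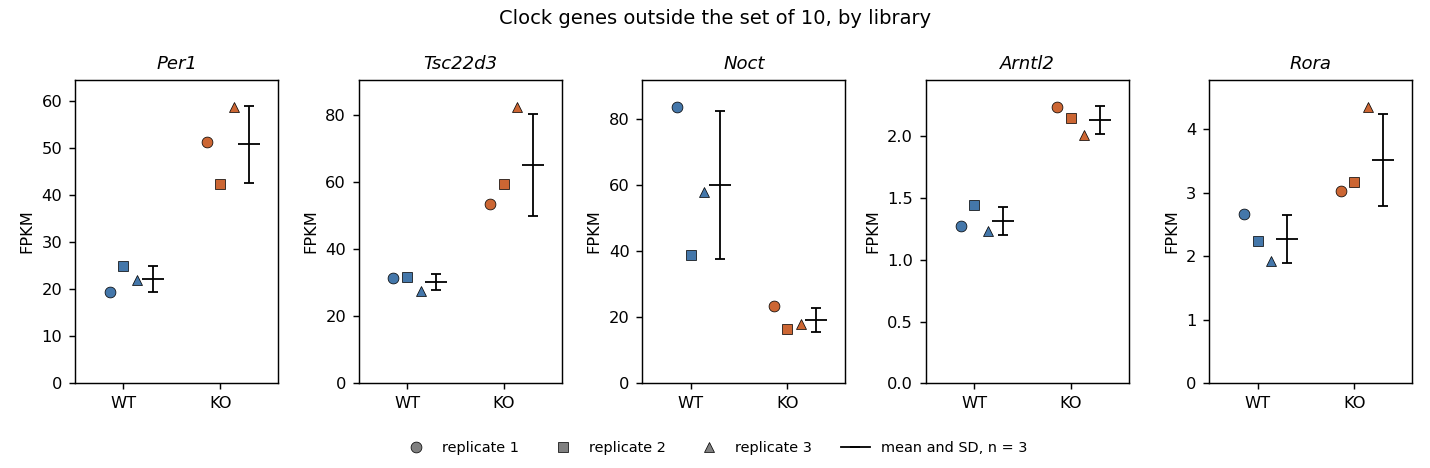
FPKM of 5 clock genes outside the set (vertical axes from 0) in the 3 WT and 3 KO libraries, with mean and SD. The groups do not overlap in any of the 5, and of these Per1, Tsc22d3 and Noct passed an adjusted p of 0.05 while Arntl2 and Rora did not.

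Of the markers of other cells, 0 passed in limma. The 7 macrophage markers summed to 86.9 to 127 FPKM in WT and 124 to 168 FPKM in KO, so the sums overlapped. Of these markers 3 lay higher in all KO libraries, beside 13.6% of all genes tested. The 10 skeletal muscle markers summed to 1464 to 2157 FPKM in WT and to 388, 1627 and 1947 FPKM in KO replicates 1, 2 and 3. The 7 erythroid markers summed to 3378 to 14389 FPKM in WT, with the maximum in WT replicate 3, and 3070 to 3956 FPKM in KO. Endothelial (414 to 494 FPKM) and Schwann cell (21.6 to 28.8 FPKM) sums overlapped between the groups, and 4 of 5 epidermis markers were under 0.5 FPKM throughout. The part of these cells in the clock gene values was not tested, and in bulk tissue fewer cells of a type and less RNA per cell cannot be told apart.

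Per1 was past the threshold in 12, Tsc22d3 in 10 and Noct in 12 of 16 alternatives (limma adjusted p 0.0101 to 0.0815, 0.0185 to 0.119 and 0.0174 to 0.109). The sign was the same in all 16, but only the scalings could have turned it. Groups without overlap keep their sign when 1 library is left out or the pseudocount changes. Filters, variance models and the replicate block leave the fold change as it is. The log2 fold changes with 1 library left out were 1.05 to 1.28 for Per1, 0.88 to 1.19 for Tsc22d3 and −1.82 to −1.27 for Noct. The number of genes called over the whole table fell from 295 to 31 without WT replicate 3 and 39 without WT replicate 2. With no filter on low values all 38 genes of the lists were tested, and 0 passed in limma, with 11 at an unadjusted p under 0.05. Without WT replicate 3, 0 of the 36 passed in limma, with 11 at an unadjusted p under 0.05. Noct alone passed without WT replicate 2, Per1 alone without KO replicate 2 and again without KO replicate 3, and Per1 was lost without KO replicate 1.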

How the data were processed

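The authors deposited 1 table of FPKM values, per the file headers, with 1 column per library, rounded to 2 decimals; the submitters' processing notes name HISAT2 2.0.4, Bowtie2 2.2.5, DESeq2 and mm10, with no role or order. The counting tool, annotation, filters and strand handling are not given in the sources used here. FPKM are not counts, so no count model was used. Values were taken as log2(FPKM + 1) and those genes averaging 0.5 FPKM or more were fitted with limma 3.58.1 in R 4.3.3 (eBayes with trend, no covariates), with Benjamini-Hochberg adjustment over 13331 genes. On simulated data with 200 of 13331 genes changed by 1.5 (log2) the fit called 83.5% of them and 5 unchanged genes. Intervals are 95% intervals of that fit.

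Depth was estimated from single-transcript genes of 500 to 1300 nt, less an offset of 50 nt: 81.6% to 85.7% of low values lay within 0.2 of a whole read, where an even spread gives 40%. The depth taken for each library was the one, of those tried, that gave the highest such share. The 40% holds for a depth fixed beforehand, so the comparison is not a test of the estimate. Positions and windows came from RefSeq GRCm38.p6, overlaps and lengths from GENCODE vM21.

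The genes and lists were chosen with earlier results of these data known. Named are all 10 genes of the set, Fstl1, Ucp1, Xist and Eif2s3y, the loop partners and paralogues, and from each other clock list (kinases and ligases, corepressor complex, rhythmic outputs) the genes past the threshold and the 3 with the smallest p. Fkbp5, Sgk1, Alas1, Plin1, Lep and the other adipocyte markers given by name were added after their values were seen. Some genes of these lists are not reported here and are left out of the list counts. Groups and replicate numbers came from the titles.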

Additional observations from a re-analysis of the deposited data

How the results depend on the processing

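The 16 alternatives were other pseudocounts, filters, scalings and variance models, the replicate block, and each library left out. Nr1d2 was higher in KO in all of them, though only the scalings could have turned its direction, since its groups did not overlap. The number of genes called (295) was 35 with no filter, 191 with a common sum and 31 to 370 with 1 library left out. Clock genes called outside the set (3) were 0 with no filter (limma; 11 at an unadjusted p under 0.05) and 0 to 3 with 1 library left out. Fstl1, whose groups did not overlap either, kept its direction, with −2.79 at an adjusted p of 0.0606 (limma) with no filter. Genes of the set without overlap (2) were 2 to 5 with 1 library left out, 5 without WT replicate 1 and 4 without KO replicate 2. Leaving out a library cannot make separate groups overlap, so this count can only stay or rise. Nr1d1 and Nr1d2 stay in it by construction. The share of all genes without overlap was not taken for these smaller sets. Directions turned for Per2 (−0.025 without WT replicate 3, up to 0.33 without another library), Arntl (−0.016 without KO replicate 3, up to 0.39), Cry2 (−0.0082 without KO replicate 2, up to 0.26) and Tbl1x (0.044 without WT replicate 1, down to −0.23), for Ciart (−0.013 with quantile normalization, −0.18 to 0.32 leaving out 1 library) and for Bhlhe40 (0.022 with a common sum, −0.20 to 0.17 leaving out 1 library); the cause was not tested. These are the genes named by rule whose direction turned, and directions also turned for some list genes not named here. Fewer samples weaken a fit by construction.

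WT and KO share replicate numbers, but deviations of same-numbered libraries correlated at 0.07, 0.04 and 0.04, and were not used as pairs. With the replicate block 167 genes were called, 2 of them clock genes outside the set; Tsc22d3 was lost (1.06, limma, adjusted p 0.0546). Lower genes made up 45.4% of calls and 25.8% to 55.4% with 1 library left out. Low values such as those of Dbp rest on few reads.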
